A study of Mus musculus with 8 samples.

Results

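The 34 genes described here encode the contractile apparatus of skeletal muscle, the proteins that couple it to calcium and the enzymes that feed it, and they were followed in brown adipose tissue (BAT). They were given as a list of gene symbols, and all 34 were found among the 44674 genes of the count and TPM tables through the mouse GENCODE annotation. By fibre type, 12 were listed as fast-fibre genes, 6 as slow-fibre genes and 16 as shared by both. How evenly fast and slow fibres use each gene listed as shared was not tested. BAT of 4 control mice and 4 Ox1RΔSERT mice had been taken at the end of a hyperinsulinemic-euglycemic clamp, in which insulin is infused and blood glucose is held steady with glucose, and was studied by mRNA sequencing. The Ox1RΔSERT mice (labelled Sert-Ox1R) carried Ox1R fl/fl and the Slc6a4-Cre (Sert-Cre) transgene, which deletes orexin receptor type 1 in cells that express the serotonin transporter. The controls (CTRL) were Ox1R fl/fl mice of that breeding that lacked Cre. All 8 mice were males on a high-fat diet (HFD) from 4 to 18 weeks of age, all went through the clamp, and each library is 1 mouse. A reporter had shown Sert-Cre activity also in some cells outside the raphe nuclei. The mice are named by the number in their label: 10684, 11253, 11560 and 11563 are controls, and 11243, 11601, 11613 and 11708 are Ox1RΔSERT. Values of all mice are given in this order.

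In a muscle fibre, thick filaments of myosin pull on thin filaments of actin when calcium, released from the sarcoplasmic reticulum, binds troponin C. Mammalian limb and trunk muscles mix fast fibres, which contract quickly and rely much on glycolysis, and slow fibres, which are oxidative, and the fibre types use different genes for most parts of the sarcomere. Brown adipocytes do not build sarcomeres, although they share embryonic origins with muscle, and the main brown fat depot of the mouse lies against muscles of the back and shoulder.

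The libraries held 35852708 to 50063339 estimated counts, of which 33.6% to 46.8% came from the mitochondrial genome. On the first principal component of the tested genes (53.6% of the variance), mice 11601 and 11708 stood apart at 59.3 and 77, with the other 6 mice between -44.3 and 7.1. The 18 brown adipocyte genes listed as a check of the tissue summed to 14493 to 18623 TPM (a level corrected for transcript length and depth) in each mouse. *Hcrtr1*, the gene of Ox1R, had 0 to 5 counts per library in either group, too few to check the deletion in BAT. The smallest p of the exact permutation test of 4 mice against 4 is 0.0286.

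Muscle transcripts were unevenly spread over the mice. The 34 genes summed to 72.9, 1214, 60 and 56.6 TPM in the control mice and to 98.1, 309, 86.6 and 2469 TPM in the Ox1RΔSERT mice. Mouse 11708 was highest, control mouse 11253 had 49.2% of its sum, mouse 11601 had 12.5%, and the other 5 mice had 2.29% to 3.98%. In these 5 mice *Myl1* and *Tpm1*, which were measured in every mouse, gave most of the sum. Gene by gene their levels were lower: the median over the 12 fast genes was 1.77% of mouse 11708 in mouse 11243 and 0.0486% to 0.374% in the remaining 4. The groups overlapped, with 351 ± 576 TPM (SD, n = 4) in controls and 741 ± 1157 TPM (SD, n = 4) in Ox1RΔSERT mice. As a share of counts, the 34 genes took 0.525% of the library of mouse 11708, 0.287% of that of mouse 11253, 0.0534% of that of mouse 11601 and 0.00778% to 0.0154% of the others. All 34 genes reached 1 TPM in mouse 11708, 29 did in mouse 11253, 25 in mouse 11601, 13 in mouse 11243 and 4 to 8 in the remaining 4 mice. In bulk tissue, fewer muscle fibres and less muscle RNA per fibre cannot be told apart.

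**Figure D1:**
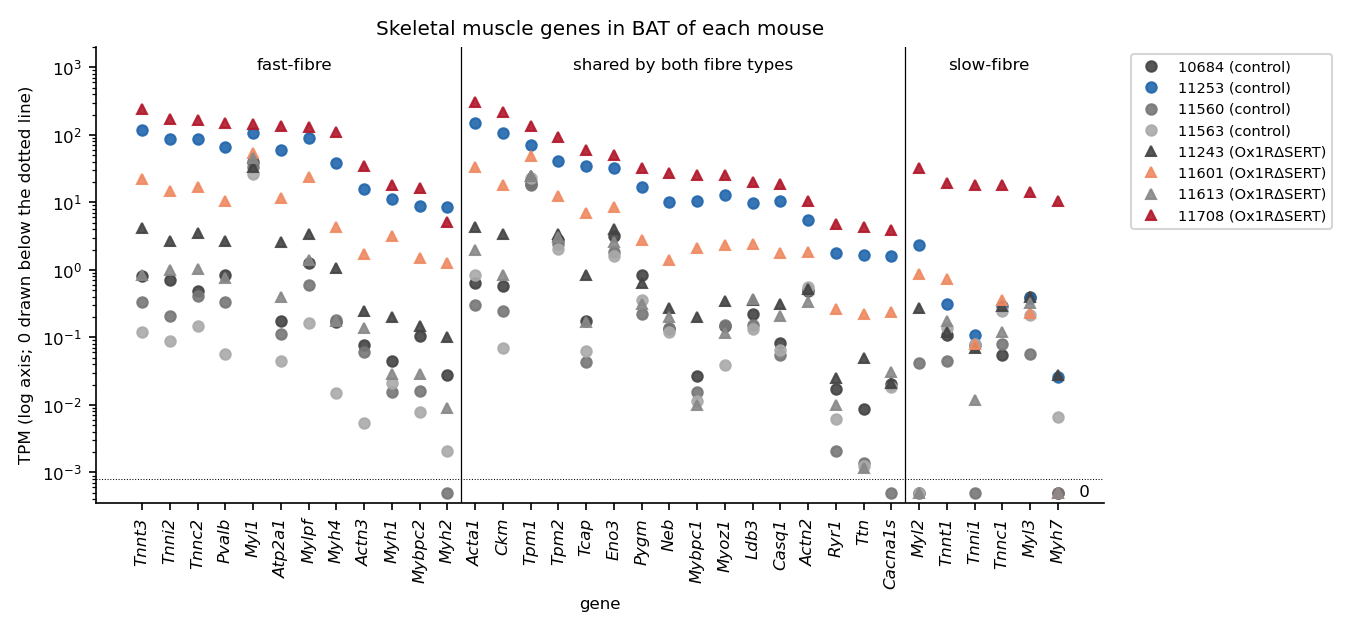
TPM (log axis) of each of the 34 muscle genes in each of the 8 mice, with circles for controls and triangles for Ox1RΔSERT mice. Mice 11708, 11253 and 11601 lie above the other 5 for the fast and shared genes, while for the slow genes mouse 11708 alone lies far above, at 10.5 to 32.6 TPM.

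The fast and slow forms of troponin C show this contrast. *Tnnc2* (ENSMUSG00000017300, chr2:164777161-164779967, minus strand, GRCm38), the calcium sensor of fast fibres, was at 0.48, 86.3, 0.411 and 0.147 TPM in the control mice and 3.54, 16.7, 1.03 and 168 TPM in the Ox1RΔSERT mice. Mice 11253, 11601 and 11708 were high, mouse 11243 was next, and the groups overlapped (21.8 ± 43 TPM (SD, n = 4) against 47.2 ± 80.5 TPM (SD, n = 4), exact permutation test on normalized values, two-sided p = 0.457). *Tnnc1* (ENSMUSG00000091898, chr14:31208312-31211729, plus strand), the form of slow fibres and heart, was at 0.0545, 0.288, 0.0811 and 0.242 TPM in the control mice and 0.288, 0.354, 0.119 and 18.1 TPM in the Ox1RΔSERT mice. Mouse 11708 alone was high for *Tnnc1*: its 628 counts compare with 2 to 13 counts in the other mice (exact permutation p = 0.314). The fast form thus exceeded the slow form 9.25 times in mouse 11708, 299 times in mouse 11253 and 47.3 times in mouse 11601.

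The inhibitory subunit of the troponin complex gave the same picture. *Tnni2*, its fast form, was at 0.708, 86.8, 0.207 and 0.0891 TPM in the control mice and 2.71, 14.5, 1 and 172 TPM in the Ox1RΔSERT mice (exact permutation p = 0.457). *Tnni1*, the slow form, was at 0.0767, 0.109, 0 and 0.0789 TPM in the control mice and 0.0697, 0.0809, 0.0117 and 18.2 TPM in the Ox1RΔSERT mice (exact permutation p = 0.714). Mouse 11253 held 86.8 TPM of the fast form and 0.109 TPM (5 counts) of the slow form, whereas mouse 11708 held 172 and 18.2 TPM. Troponin T ties the complex to tropomyosin. Its fast form *Tnnt3* was at 0.805, 116, 0.334 and 0.119 TPM in the control mice and 4.17, 21.9, 0.835 and 239 TPM in the Ox1RΔSERT mice (exact permutation p = 0.486). Its slow form *Tnnt1* was at 0.107, 0.31, 0.0449 and 0.136 TPM in the control mice and 0.12, 0.733, 0.176 and 19.2 TPM in the Ox1RΔSERT mice (exact permutation p = 0.171). The slow form made up 9.75%, 9.55% and 7.44% of the fast and slow TPM of troponin C, I and T in mouse 11708, and 0.333%, 0.126% and 0.266% in mouse 11253.

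Myosin heavy chains are the motors that define fibre types: *Myh4* marks type IIb, *Myh1* type IIx and *Myh2* type IIa fibres, all fast, and *Myh7* marks slow type I fibres. *Myh4* (ENSMUSG00000057003, chr11:67238029-67260446, plus strand) had the widest range of the 34 genes over the mice on the scale of log2(normalized value + 0.1), where *Ckm* had it on that of log2(TPM + 0.1), and was at 0.171, 38.7, 0.179 and 0.0149 TPM in the control mice and 1.05, 4.33, 0.176 and 111 TPM in the Ox1RΔSERT mice (exact permutation p = 0.514). *Myh1* was at 0.0442, 11.4, 0.0155 and 0.0213 TPM in the control mice and 0.2, 3.18, 0.0284 and 18.3 TPM in the Ox1RΔSERT mice (exact permutation p = 0.486). *Myh2* was at 0.0278, 8.65, 0 and 0.00207 TPM in the control mice and 0.102, 1.26, 0.00886 and 5.11 TPM in the Ox1RΔSERT mice (exact permutation p = 0.971). For *Myh2* control mouse 11253 was the highest, at 169% of mouse 11708, the 1 gene of the 34 that was not highest in mouse 11708. *Myh7* (ENSMUSG00000053093, chr14:54970684-54994626, minus strand) was at 0, 0.026, 0 and 0.00655 TPM in the control mice and 0.0279, 0, 0 and 10.5 TPM in the Ox1RΔSERT mice (exact permutation p = 0.714). Mouse 11708 had 3638 counts of *Myh7*, and the other mice had 0 to 13. Of the TPM of the 4 heavy chains, mouse 11708 had 76.6% *Myh4*, 12.6% *Myh1*, 3.53% *Myh2* and 7.21% *Myh7*. Mouse 11253 had 65.9%, 19.4%, 14.7% and 0.0442%, and mouse 11601 had 49.4%, 36.2%, 14.4% and 0%, in the same order. *Myh1*, *Myh2* and *Myh4* are neighbouring copies of very like sequence on chromosome 11, so how their reads were split between them is uncertain.

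Each myosin head also carries a regulatory and an essential light chain. *Mylpf*, the fast regulatory light chain, was at 1.25, 91.1, 0.597 and 0.165 TPM in the control mice and 3.41, 23.5, 1.39 and 130 TPM in the Ox1RΔSERT mice (exact permutation p = 0.771). *Myl2*, the slow and ventricular form, was at 0, 2.33, 0.0416 and 0 TPM in the control mice and 0.275, 0.88, 0 and 32.6 TPM in the Ox1RΔSERT mice (exact permutation p = 0.543). *Myl2* was the slow gene with the most signal outside mouse 11708, with 77 counts in mouse 11253 and 29 in mouse 11601. *Myl1*, the fast essential light chain, was at 39.6, 105, 33.1 and 26.6 TPM in the control mice and 32.9, 54.1, 45 and 146 TPM in the Ox1RΔSERT mice (exact permutation p = 0.971). Unlike the troponins, *Myl1* was well measured in every mouse, with 1197 to 5338 counts. *Myl3*, its slow partner, was at 0.392, 0.382, 0.0561 and 0.218 TPM in the control mice and 0.399, 0.228, 0.323 and 14.1 TPM in the Ox1RΔSERT mice (exact permutation p = 0.429), and mouse 11253 did not stand above the other controls. Myosin binding protein C is a part of the thick filament. Its fast form *Mybpc2* ranged from 0.0078 to 0.15 TPM in 5 mice and was at 1.52, 8.79 and 16.4 TPM in mice 11601, 11253 and 11708. *Mybpc1*, listed as shared, ranged from 0.00991 to 0.198 TPM in 5 mice and was at 2.1, 10.5 and 25.6 TPM in these 3.

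**Figure D2:**
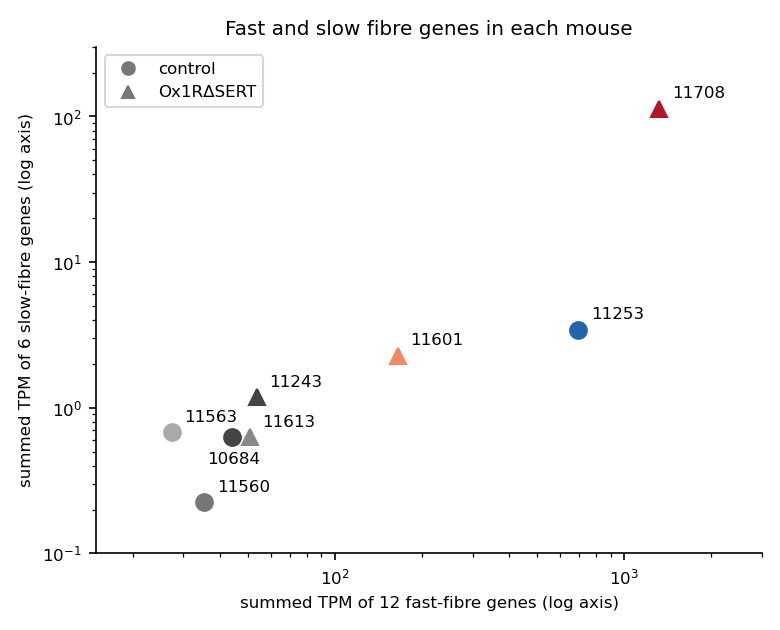
Summed TPM of the 12 fast-fibre genes (log axis) against that of the 6 slow-fibre genes (log axis), 1 point per mouse. Control mouse 11253 and Ox1RΔSERT mouse 11708 differ less along the fast axis (695 and 1323 TPM) than along the slow axis (3.44 and 113 TPM).

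Summed over the lists, the 12 fast genes were at 44.2, 695, 35.4 and 27.3 TPM in the control mice and at 53.7, 165, 50.8 and 1323 TPM in the Ox1RΔSERT mice. The 6 slow genes were at 0.631, 3.44, 0.224 and 0.681 TPM and at 1.18, 2.28, 0.629 and 113 TPM. The fast sum exceeded the slow sum 11.7 times in mouse 11708, 202 times in mouse 11253 and 72.3 times in mouse 11601. In the other 5 mice this ratio was 40 to 158, but it rested on 8 to 72 counts of slow genes per library and on *Myl1*, which gave most of their fast sum.

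The genes listed as shared, some of which may be used more by fast fibres, followed the fast ones. *Acta1* (ENSMUSG00000031972, chr8:123891769-123894751, minus strand), skeletal muscle actin, was at 0.642, 150, 0.301 and 0.844 TPM in the control mice and 4.25, 33.2, 1.96 and 304 TPM in the Ox1RΔSERT mice. It had the highest mean TPM of the 34 genes (62, against 60.3 for *Myl1*) through mice 11253 and 11708, where it led, while *Myl1* led in the other 6 mice. The 3 mice were again high, and the groups overlapped (38 ± 74.8 TPM (SD, n = 4) against 86 ± 146 TPM (SD, n = 4), exact permutation p = 0.457). *Ckm*, the creatine kinase that buffers ATP in muscle, was at 0.572, 105, 0.246 and 0.0708 TPM in the control mice and 3.45, 18, 0.827 and 215 TPM in the Ox1RΔSERT mice (exact permutation p = 0.457). *Ttn*, the giant spring that runs from Z disc to M band, was at 0.00873, 1.68, 0.00139 and 0.00125 TPM in the control mice and 0.0496, 0.221, 0.00117 and 4.26 TPM in the Ox1RΔSERT mice (exact permutation p = 0.514). *Neb*, the ruler of the thin filament, was at 0.12 to 0.274 TPM in 5 mice and at 1.38, 10 and 27.5 TPM in mice 11601, 11253 and 11708. Tropomyosin covers the myosin sites on actin, and its genes are also used outside skeletal muscle. *Tpm1* had the narrowest range of the 34 in log2(normalized value + 0.1), 2.26 against 2.28 for *Myl1*, which was the narrower in TPM (5.49 against 7.47 times from lowest to highest). *Tpm1* was at 18.7, 71.6, 18.3 and 22.7 TPM in the control mice and 24.4, 48, 24.9 and 137 TPM in the Ox1RΔSERT mice (exact permutation p = 0.486). *Tpm2* was at 2.05 to 3.39 TPM in 5 mice and at 12.5, 40.9 and 93.6 TPM in mice 11601, 11253 and 11708. Together with *Myl1* and *Eno3*, they were the 4 genes at or above 1 TPM in every mouse.

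At the Z disc, which anchors the thin filaments, *Actn3*, the actinin of fast fibres, was at 0.00534 to 0.242 TPM in 5 mice and at 1.72, 15.7 and 34.8 TPM in mice 11601, 11253 and 11708. *Actn2*, the actinin shared with heart, was at 0.337 to 0.556 TPM in 5 mice and at 1.81, 5.48 and 10.6 TPM in these 3. *Tcap*, the cap of titin, reached 6.88, 34.6 and 59.6 TPM, *Myoz1* reached 2.33, 12.9 and 25.1 TPM, and *Ldb3* reached 2.44, 9.71 and 20 TPM in mice 11601, 11253 and 11708, with at most 0.832, 0.351 and 0.372 TPM in any other mouse. All 5 genes thus kept the same order of mice.

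The genes of calcium handling did so too. *Atp2a1*, the calcium pump SERCA1 of fast fibres, was at 0.0454 to 2.57 TPM in 5 mice and at 11.5, 58.8 and 134 TPM in mice 11601, 11253 and 11708. *Pvalb*, the calcium buffer parvalbumin of fast fibres, was at 10.4, 66.9 and 149 TPM in these 3 mice and at 0.0573 to 2.68 TPM in the others. *Casq1*, which stores calcium in the sarcoplasmic reticulum, was at 1.75, 10.6 and 19 TPM. *Ryr1*, the release channel, was at 0.263, 1.78 and 4.73 TPM, and *Cacna1s*, its voltage sensor, was at 0.234, 1.61 and 3.93 TPM. *Cacna1s* had the lowest mean TPM of the shared genes. Of the glycolytic enzymes, *Eno3*, muscle enolase, was at 8.6, 32.6 and 50.4 TPM in mice 11601, 11253 and 11708 and at 1.6 to 4.09 TPM in the others. *Pygm*, muscle glycogen phosphorylase, was at 2.75, 16.9 and 32.4 TPM in the 3 mice and at 0.219 to 0.843 TPM in the others.

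With mouse 11708 set to 100%, control mouse 11253 had a median of 50.9% over the 12 fast genes, from 34.9% (*Myh4*) to 169% (*Myh2*), and of 49.2% over the 16 shared genes, from 36.4% (*Neb*) to 64.8% (*Eno3*). Over the 6 slow genes its median was 1.6%, from 0.249% (*Myh7*) to 7.14% (*Myl2*), so that the ranges of slow and fast genes did not overlap. Mouse 11601 had medians of 9.21% over the fast, 9.24% over the shared and 1.78% over the slow genes. Its slow genes, at 0% to 3.82%, lay below all its fast genes, of which *Myh4* was lowest at 3.9%. These levels are TPM. In the normalized values of the tests (CPM after TMM), which are scaled otherwise and are not corrected for length, so that long genes weigh more in a sum, the fast sum of mouse 11253 was 73.5% and its slow sum 2.64% of mouse 11708, where the TPM sums gave 52.5% and 3.06%.

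**Figure D3:**
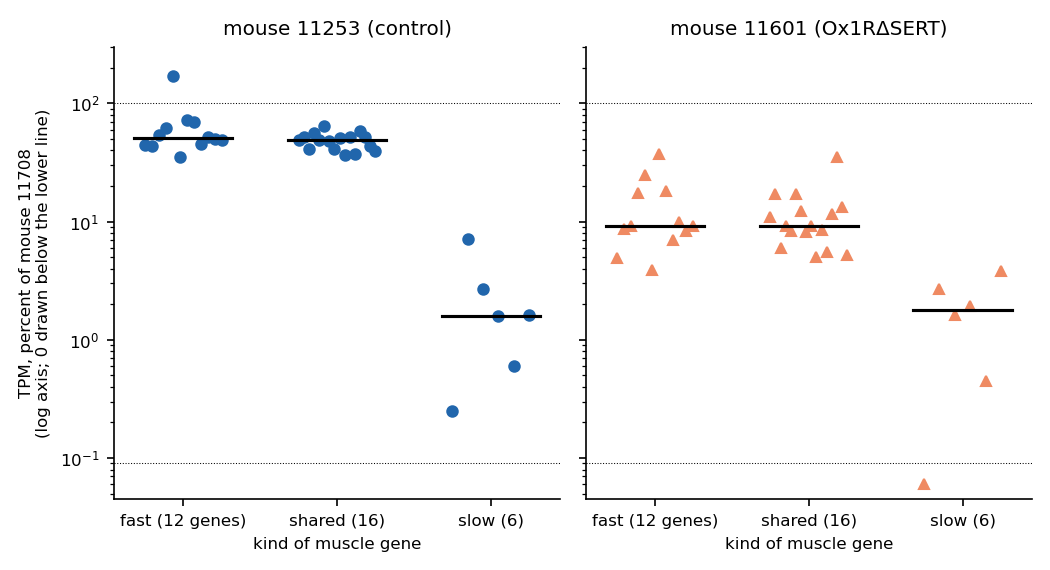
TPM of each muscle gene in mice 11253 and 11601 as a percent of its TPM in mouse 11708 (log axis), 1 point per gene with the median as a bar, by fibre type. In mouse 11253 the fast and shared genes sit around 50.9% and 49.2% and the 6 slow genes at 0.249% to 7.14%.

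The order of mice was shared by most of the 34 genes. In 29 of them (85.3%) the level was highest in mouse 11708, then in mouse 11253, then in mouse 11601, which held for 0.946% of the 14489 genes tested. The 5 exceptions were *Myh2* and the slow genes *Myh7*, *Myl3*, *Tnnt1* and *Tnnc1*. By normalized values 26 of the 34 kept this order. Among the other 5 mice, mouse 11243 was highest for 26 of the 34 genes, such as *Acta1* at 4.25 TPM and *Ckm* at 3.45 TPM. On the scale of log2(normalized value + 0.1), the range over the mice was 2.26 (*Tpm1*) to 11.7 (*Myh4*) with a median of 8.39, against a median of 0.761 over all genes tested, and it passed 4 in 32 of the 34 genes and in 1.69% of all genes tested. Control mouse 11253 exceeded the next control by a median of 82.5 times over the 34 genes, from 0.975 times (*Myl3*) to 388 times (*Mybpc1*). Mouse 11708 exceeded the next Ox1RΔSERT mouse by a median of 11.7 times over all 34 genes and by 26.2 times (*Tnnt1*) to 374 times (*Myh7*) over the slow genes.

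Of the other tested genes, the 15 whose profile over the 8 mice lay nearest to the mean profile of the 34 were chosen by the root mean square difference of centred log2 normalized values. They were *Ampd1* (0.248), *Csrp3*, *Cox6a2*, *Trdn*, *Myom2*, *Apobec2*, *Nrap*, *Xirp1*, *Pgam2*, *Slc38a3*, *Eef1a2*, *Myot*, *Ankrd2*, *Mylk4* and *Ckmt2* (0.658). The difference had a median of 0.895 over the 34 genes themselves and of 2.76 over all genes tested. *Ampd1*, the AMP deaminase of muscle, was at 3.52 TPM in mouse 11253, 0.79 TPM in mouse 11601, 7.67 TPM in mouse 11708 and at most 0.0882 TPM in the others. *Csrp3*, a muscle LIM protein, was at 6.12, 1.46 and 15 TPM in the same mice and at most 0.249 TPM in the others.

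Promoters are shown for 4 of the genes: *Acta1*, with the highest mean TPM, *Myh4*, with the widest range of normalized values, and the fast and slow troponin C, which differed over the mice. Each is the 250 bases before the RefSeq start on GRCm38.p6, written 5′ to 3′ on the strand of the gene, with capitals for each E-box (CANNTG, the letters that myogenic factors of the MyoD family are known to bind). RefSeq and GENCODE starts can differ. In GENCODE *Tnnc2* starts at 164779967, so most of its window lies within the gene, and *Myh4* starts at 67238029, beyond the end of its window.
Acta1, chr8:123894776-123895025, minus strand: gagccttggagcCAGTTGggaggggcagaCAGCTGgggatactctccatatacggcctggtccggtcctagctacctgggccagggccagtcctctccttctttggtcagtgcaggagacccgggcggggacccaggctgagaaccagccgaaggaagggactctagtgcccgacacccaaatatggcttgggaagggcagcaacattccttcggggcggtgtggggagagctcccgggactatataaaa
Myh4, chr11:67237562-67237811, plus strand: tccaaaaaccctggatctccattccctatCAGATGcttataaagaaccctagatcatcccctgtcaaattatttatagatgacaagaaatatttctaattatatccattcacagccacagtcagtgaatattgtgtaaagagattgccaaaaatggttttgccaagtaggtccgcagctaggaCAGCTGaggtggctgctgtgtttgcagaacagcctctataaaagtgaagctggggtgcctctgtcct
Tnnc2, chr2:164779735-164779984, minus strand: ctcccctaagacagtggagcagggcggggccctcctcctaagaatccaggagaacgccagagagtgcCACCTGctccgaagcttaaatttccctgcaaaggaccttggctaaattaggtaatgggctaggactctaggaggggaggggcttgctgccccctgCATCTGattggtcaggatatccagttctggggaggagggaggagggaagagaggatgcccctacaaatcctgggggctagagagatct
Tnnc1, chr14:31208062-31208311, plus strand: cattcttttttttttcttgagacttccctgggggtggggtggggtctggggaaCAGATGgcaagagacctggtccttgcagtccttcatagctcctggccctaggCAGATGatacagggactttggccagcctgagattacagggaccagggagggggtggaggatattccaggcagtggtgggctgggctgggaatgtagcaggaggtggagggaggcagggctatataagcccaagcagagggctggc
The promoter table held 28 of the 34 genes, with 33 windows. An E-box was found in 27 of these windows (81.8%) and in 66.2% of the 32851 windows of all genes. The CArG box, which serum response factor is known to bind, was found in 15.2% of the muscle windows (5 windows of 4 genes) and in 1.47% of all windows. The M-CAT element (CATTCC) was found in 33.3% and 12.6%. CTANNNNTAG, a loose form of the MEF2 motif that allows any base in the middle, was found in 6.06% (2 windows) and 3.2%. TATAAA was found in 18.2% and 12.4%. Both strands were searched and overlapping matches were counted. The shares are a description of letters, not of binding.

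Between genotypes, 0 of the 34 genes were called. edgeR's quasi-likelihood test was fitted to 30 of them and called 0 at an adjusted p under 0.05, as it did among all 14489 genes tested (0%). *Myh7*, *Tnnt1*, *Tnni1* and *Cacna1s* did not pass the filter on low counts. The fitted log2 fold change, Ox1RΔSERT over control, was above 0 for 28 genes and below 0 for *Myh2* and *Myl1*, with a median of 0.56 against 0.002 over all genes tested. Its standard errors were 0.59 to 2.27, against a median of 0.18 over all genes, and adjusted p was 0.316 to 0.994. Each standard error was derived as the absolute log2 fold change divided by the square root of the F statistic of that test. At an unadjusted p under 0.05 there were 2 genes, both slow and higher in Ox1RΔSERT mice, where 15.2% of all genes passed that threshold and 10.2% did so with a higher level. *Tnnc1* had a log2 fold change of 4.40 ± 1.64 (SE) and an adjusted p of 0.316, and *Myl3* had 3.63 ± 1.43 (SE) and an adjusted p of 0.316, each through mouse 11708. *Acta1* had 0.59 ± 2.02 (SE, adjusted p = 0.905), *Ckm* had 0.56 ± 2.09 (SE, adjusted p = 0.913) and *Myh2* had -1.06 ± 2.14 (SE, adjusted p = 0.829). DESeq2 called 0 of the 34 genes and 1.75% of all genes to which it gave an adjusted p, but it gave no p for 30 of them, since it sets aside genes in which the count of 1 sample is an outlier. The genotype groups overlapped for all 30 genes tested, where 5.5% of all genes tested did not overlap. In the exact permutation test of normalized values the lowest p over the 34 genes was 0.171 (*Tnnt1*).

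The direction of the fitted difference depended on single mice. Without control mouse 11253 the median log2 fold change was 6.6, all 30 genes fitted were above 0 and 27 had an unadjusted p under 0.05 (13.7% of all genes in that fit). Without Ox1RΔSERT mouse 11708 the median was -2.28, 28 of 30 genes were below 0 and 0 had an unadjusted p under 0.05 (7.06% of all genes). Without mice 11253, 11601 and 11708, a setting chosen after their levels had been seen, 10 of 26 genes had an unadjusted p under 0.05, all higher in the remaining Ox1RΔSERT mice 11243 and 11613 (3.62% of all genes), with a median of 1.74. Because these mice were set aside for their levels of the same genes, those p values cannot test a difference between genotypes. No gene of the 34 was called in any of these fits by edgeR.

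**Figure D4:**
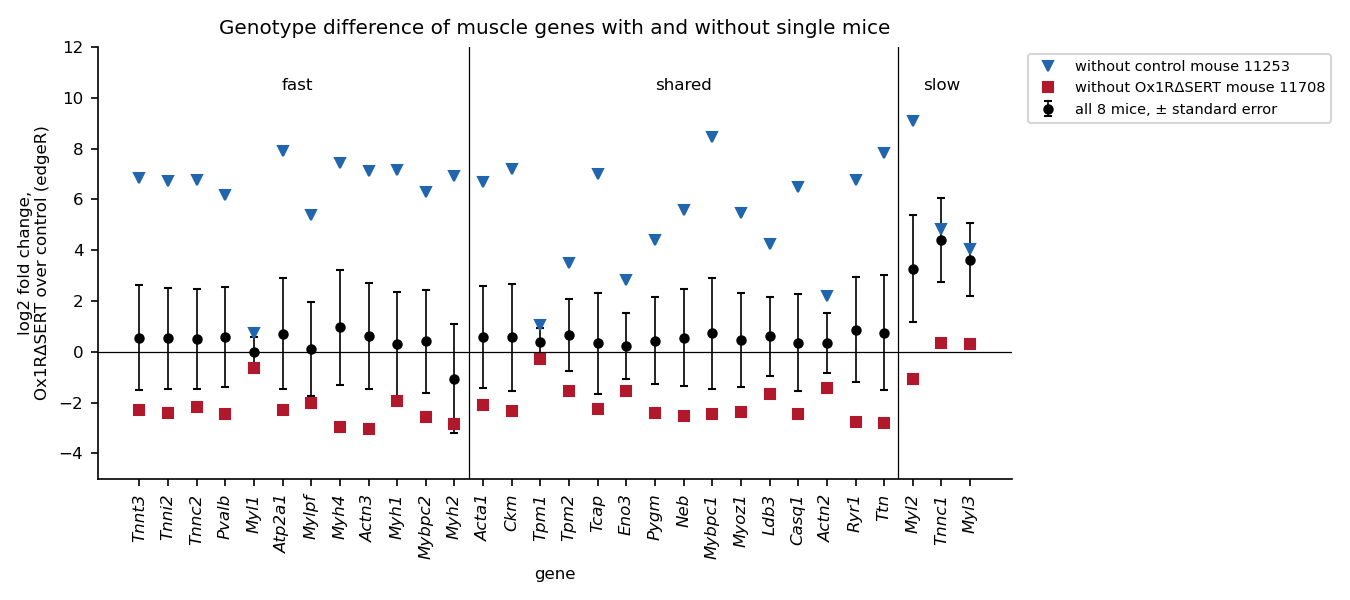
Log2 fold change, Ox1RΔSERT over control, of the 30 muscle genes tested by edgeR, with all 8 mice (black, error bars are standard errors derived from the F statistic), without control mouse 11253 (blue) and without Ox1RΔSERT mouse 11708 (red). For 26 genes the sign turns without mouse 11708, and without mouse 11253 the median is 6.6 in place of 0.56.

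Genes of other cell types were read beside the 34. In a list of 94 further genes of skeletal muscle, 57 of the 93 with more than 3 counts in all (61.3%) kept the order of mice 11708, 11253 and 11601, and 0 of 63 tested were called. Its most abundant gene, *Cox8b* (mean 3488 TPM), a subunit of cytochrome c oxidase, is also a gene of brown fat and did not follow them. Of 14 genes listed for heart muscle, 9 had more than 3 counts in all and 0 kept that order. *Myl4*, an atrial light chain, was the most abundant (mean 3.73 TPM), and *Myl7*, *Nppa* and *Nkx2-5*, which mark heart muscle, were at 0 in all mice. Among 15 genes of muscle development and satellite cells the most abundant was *Des* (mean 22.5 TPM), the gene of desmin, 5 of the 12 with more than 3 counts kept the order, and *Mymx* and *Chrng* were at 0 in all mice. Of 12 smooth muscle genes, led by *Myl9* (mean 6.03 TPM), 1 kept the order of mice, *Ldb3*, which is also one of the 34. Mouse 11708 was nevertheless highest for 9 of these 12 (75%), against 25.9% of all genes tested.

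Macrophage and fibroblast genes were arranged otherwise. The 12 macrophage genes, led by *Lyz2* (mean 147 TPM), summed to 150, 186, 96.4 and 123 TPM in the control mice and to 139, 971, 196 and 706 TPM in the Ox1RΔSERT mice. The 10 fibroblast genes, led by *Col3a1* (mean 244 TPM), summed to 126, 259, 159 and 171 TPM and to 195, 1969, 328 and 890 TPM. Both sums were highest in mouse 11601, where the muscle genes were at 12.5% of mouse 11708. Gene by gene, 9 of the 12 macrophage and 10 of the 10 fibroblast genes were highest there, as were 6179 of the 14489 genes tested. Control mouse 11253, with 1214 TPM of muscle genes, had 186 TPM of macrophage and 259 TPM of fibroblast genes. By edgeR, 12 of 12 macrophage genes (median log2 fold change 1.61) and 9 of 10 fibroblast genes (median 1.38) were higher at an unadjusted p under 0.05, as were 10.2% of all genes, and 0 of either list were called. DESeq2, which called 1.75% of all genes, called 5 macrophage genes (*Fcgr1*, *Cd14*, *Itgam*, *Ptprc* and *Mrc1*) and 1 fibroblast gene (*Pdgfra*), all higher in Ox1RΔSERT mice. The sum of the 18 brown adipocyte genes, led by *Fabp4* (mean 7535 TPM), varied least of the summed lists, 1.28 times from mouse 11708 (lowest) to mouse 11613 (highest). Genes of lower level weigh little in that sum, and some varied more, such as *Dio2* at 29 to 164 TPM and *Ppargc1a* at 4.97 to 19.4 TPM. By edgeR, the log2 fold change was above 0 for 1 of the 18 (median -0.28), 5 were lower at an unadjusted p under 0.05 and 0 were called. Of all genes, 15.2% passed that threshold in either direction, and most of these were higher (10.2% of all genes). DESeq2 called *Elovl3*, an enzyme of fatty acid elongation, as lower. The genes called by DESeq2, *Dio2* and *Ppargc1a* are named after their values were seen. The part of these cell types in the levels of the muscle genes was not tested.

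**Figure D5:**
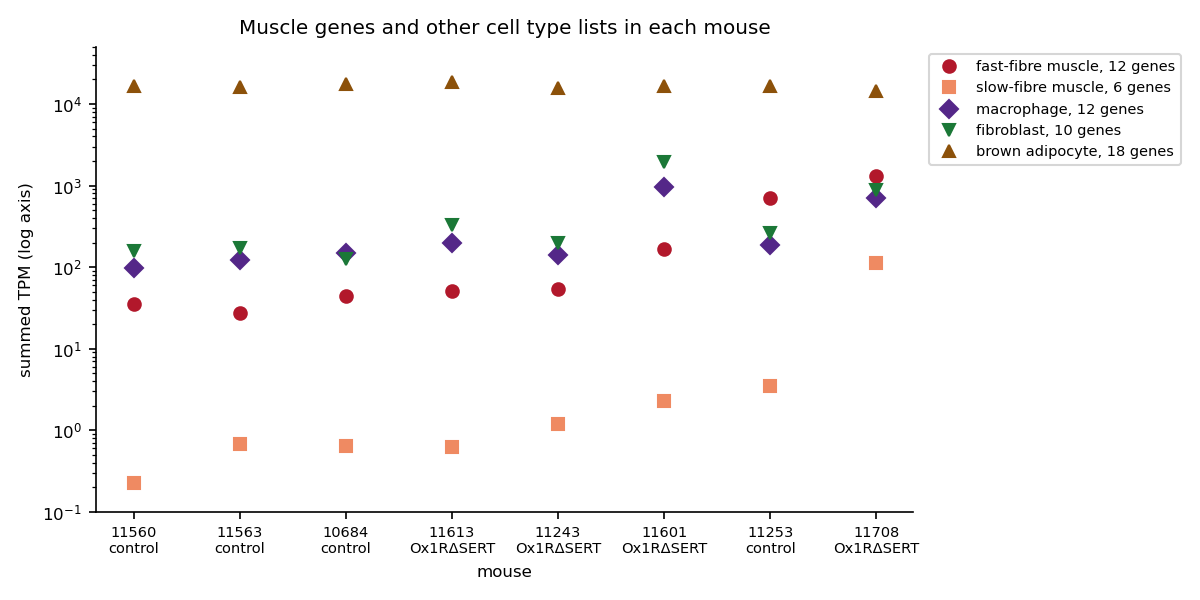
Summed TPM (log axis) of the fast and slow muscle genes and of the macrophage, fibroblast and brown adipocyte lists in each of the 8 mice. Mouse 11253 combines 695 TPM of fast muscle genes with 186 TPM of macrophage genes, while mouse 11601 combines 165 TPM with 971 TPM.

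Some of the 34 genes overlap other genes. In the annotation, 15 of them share 45 to 1309 exonic bases with a gene on the opposite strand. *Tnnc2* shares 592 bases with *Ube2c*, a gene of dividing cells, which was at 4.99 and 4.13 TPM in mice 11601 and 11708 but at 1.03 TPM in mouse 11253, where *Tnnc2* was at 86.3 TPM. *Atp2a1* shares 763 bases with *Rabep2*, which stayed at 1.62 to 3.65 TPM. The libraries were stranded, and the strand setting of the quantification was not given in the sources used here.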

How the data were processed

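BAT of 8 mice, 4 per genotype, was measured by stranded poly-A mRNA sequencing. The authors deposited estimated counts per gene (Salmon 0.14.1 on GRCm38, per the labels GRCm38.p6 with STAR also named), which are not normalized, and TPM values, which the authors normalized for transcript length and depth. TPM is a share of each library, so a gene set that takes more of a library lowers the TPM of the rest.

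Symbols, positions and overlaps were taken from GENCODE release M21 (44118 of 44674 identifiers had a symbol). Estimated counts were rounded and fitted over all genes with edgeR 4.0.16 (filterByExpr, TMM, glmQLFit and glmQLFTest, two-sided, Benjamini-Hochberg, threshold 0.05) in R 4.3.3, with genotype and no covariate. Alternatives were DESeq2 1.42.0, limma 3.58.1, other scalings and filters, and mice left out. Exact permutation tests used normalized values over 70 assignments and were not adjusted over the list. Levels of different genes were compared only in TPM. Groups came from the labels, which give no batches, and each sample is 1 mouse. The scripts were tested on simulated counts with 200 changed genes.

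The 34 genes, the lists and the tests were chosen with earlier results of these data known. All 34 genes are named. Values mouse by mouse are given for the fast and slow pairs, *Acta1*, *Ckm*, *Ttn* and the genes of widest and narrowest range in log2(normalized value + 0.1). From other lists the most abundant gene and those at 0 are named, with the 15 nearest profiles.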

Additional observations from a re-analysis of the deposited data

Results flagged for a closer look

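Over the 34 genes and both groups, 68 groups of 4 mice were looked at for a single mouse far from the other 3, as the gap to the nearest mouse divided by the range of log2(normalized value + 0.1). In 19 of them the share was above 0.829, where chance gives about 1 in 20 groups, and genes of the same mouse are not independent. In 16 the mouse was control mouse 11253, which lay above the other controls: *Acta1* (0.854), *Actn2* (0.953), *Myh1* (0.88), *Myl2* (0.937), *Tnnc2* (0.86), *Tpm1* (0.874), *Tpm2* (0.897), *Neb* (0.938), *Mybpc1* (0.88), *Myoz1* (0.847), *Tcap* (0.881), *Ldb3* (0.915), *Atp2a1* (0.844), *Cacna1s* (0.915), *Casq1* (0.935) and *Pygm* (0.843). In 3 it was Ox1RΔSERT mouse 11708: *Myl1* (0.886), *Tnni1* (0.914) and *Tnnc1* (0.833). For most genes mouse 11601 lay between mouse 11708 and the other Ox1RΔSERT mice, so that mouse 11708 did not stand alone on the log2 scale. On the linear scale 60 of the 68 groups were above that value.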

How the results depend on the processing

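In every setting run, 0 of the 34 genes were called, at an adjusted p under 0.1 as well. Over all genes edgeR called 0 in each of its fits and DESeq2 called 265. At an unadjusted p under 0.05 there were 2 of 30 genes with all mice (15.2% of all genes). Without the filter on low counts there were 5 of 34 (14.7%, against 11.2% of all genes). With at least 10 counts in every mouse only 10 of the 34 were fitted and 0 passed (15.5% of all genes). DESeq2, which gave no p for 30 of them, had 0 (10.5% of all genes). Limma voom, limma-trend on log2(TPM + 1) and on log2(TPM + 0.1) had 0 of 30 (11.3%, 21% and 22.1% of all genes). Without mice 11601 and 11708 there were 0 of 31 (2.85% of all genes). Without mice 11253, 11601 and 11708 there were 10 of 26 (3.62%), and without mice 11253 and 11708 there were 19 of 26 (6.53%). The last 2 settings were chosen after the levels of these genes had been seen, so their p values cannot test a difference between genotypes. Leaving out 1 mouse at a time, 0 to 27 of the genes passed that threshold, where 6.86% to 22.4% of all genes did. The median log2 fold change over the genes was then -2.28 (without mouse 11708) to 6.6 (without mouse 11253). The 27 genes came without mouse 11253, the control with the highest sum of these genes, so they cannot test a difference between genotypes either. Without mice 11601 and 11708 the median was -3.73. The other scalings (RLE, upper quartile, without the mitochondrial genome) turned no sign. Library size scaling and the 2 TPM fits moved the median of all genes to 0.219, 0.23 and 0.319. The median of the muscle genes moved to 0.931, 0.773 and 1.64 in these 3 fits. With voom the 2 medians were 0.004 and 2.69, where the main edgeR fit gave 0.002 and 0.56. In voom and both TPM fits all 30 muscle genes fitted were above 0. Library size scaling turned *Myl1* to 0.27. The log2 difference of *Myh2* and *Myl1* turned to 3.32 and 0.087 with voom, 0.16 and 0.41 with log2(TPM + 1), 0.94 and 0.42 with log2(TPM + 0.1), 2.56 and 0.087 without mice 11253, 11601 and 11708, and 5.14 and 0.16 without mice 11253 and 11708. *Actn2* turned to -0.32 without mice 11253, 11601 and 11708. Without mice 11601 and 11708 the sign turned for 26 genes: *Acta1* -3.75, *Actn2* -2.18, *Actn3* -4.52, *Ckm* -3.73, *Myh1* -4.74, *Myh4* -4.12, *Myl2* -2.10, *Mylpf* -3.72, *Tnnt3* -3.69, *Tnni2* -3.76, *Tnnc2* -3.40, *Tpm1* -0.52, *Tpm2* -2.32, *Ttn* -4.76, *Neb* -4.25, *Mybpc1* -4.59, *Mybpc2* -4.75, *Myoz1* -3.94, *Tcap* -4.19, *Ldb3* -2.58, *Pvalb* -3.48, *Atp2a1* -4.08, *Ryr1* -4.81, *Casq1* -3.80, *Eno3* -2.05 and *Pygm* -3.32. Leaving out 1 mouse at a time, the sign turned at least once for 28 genes, with these lowest and highest log2 fold changes: *Acta1* -2.10 to 6.70, *Actn2* -1.44 to 2.22, *Actn3* -3.03 to 7.11, *Ckm* -2.34 to 7.18, *Myh1* -1.92 to 7.16, *Myh2* -2.85 to 6.92, *Myh4* -2.94 to 7.43, *Myl1* -0.64 to 0.76, *Myl2* -1.06 to 9.07, *Mylpf* -2.01 to 5.38, *Tnnt3* -2.27 to 6.84, *Tnni2* -2.41 to 6.71, *Tnnc2* -2.17 to 6.76, *Tpm1* -0.30 to 1.07, *Tpm2* -1.55 to 3.49, *Ttn* -2.81 to 7.82, *Neb* -2.52 to 5.60, *Mybpc1* -2.45 to 8.46, *Mybpc2* -2.57 to 6.30, *Myoz1* -2.37 to 5.46, *Tcap* -2.25 to 6.98, *Ldb3* -1.66 to 4.25, *Pvalb* -2.44 to 6.18, *Atp2a1* -2.30 to 7.91, *Ryr1* -2.75 to 6.75, *Casq1* -2.44 to 6.50, *Eno3* -1.54 to 2.83 and *Pygm* -2.41 to 4.39. The summed slow level of mouse 11601, 2.02% of mouse 11708 in TPM, was 0.982% in CPM after TMM, where both the scaling and the length correction differ, and 1.89% in TPM without the mitochondrial genome. The cause of these changes beyond the mice left out was not tested. Slow genes had 8 to 132 counts in all in each mouse but 11708, which limits their ratios there.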

Other observations

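Of the myogenic transcription factors of the MyoD family, looked at after their values were seen, *Myf6*, *Myod1* and *Myog* were highest in mice 11708 and 11253. *Myf5* was near the floor, with 3 counts in mouse 11708, 1 in mouse 11253 and 0 in the others. *Myf6*, the myogenic factor of mature fibres, was at 0, 1.77, 0 and 0 TPM in control mice 10684, 11253, 11560 and 11563 and at 0.0158, 0.614, 0.0205 and 5.99 TPM in Ox1RΔSERT mice 11243, 11601, 11613 and 11708. *Myod1* was at 0.232, 0.0961 and 1.06 TPM in mice 11253, 11601 and 11708 and at most 0.0121 TPM in the others. *Myog*, which drives the differentiation of myoblasts, was at 0.26, 0.0169 and 0.692 TPM in these 3 mice and at 0 in the others. In mouse 11601 the values rest on 29 counts of *Myf6*, 6 of *Myod1* and 1 of *Myog*. *Myh3*, the embryonic myosin heavy chain, stayed at or below 0.0418 TPM in every mouse. Of other genes of muscle, *Car3*, carbonic anhydrase 3, was high in BAT of every mouse, at 491 to 1521 TPM with the highest level in mouse 11613. *Mb*, myoglobin, kept the order of the muscle genes, at 79.9, 59.8 and 50.4 TPM in mice 11708, 11253 and 11601. It was at 6.75 TPM in mouse 11613 and at 24.7 to 33.7 TPM in the others.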
